A study of Schmidtea mediterranea with 58 samples.

Results

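H3K4me3, the trimethylated form of lysine 4 of histone H3, was mapped by chromatin immunoprecipitation and sequencing (ChIP-seq) in X1 cells of the planarian flatworm *Schmidtea mediterranea* after RNAi against *mll*. X1 cells were collected by fluorescence-activated sorting from worms that had been fed bacteria expressing double-stranded RNA in liver paste. In the RNAi group the target was *mll* and feeding lasted 9 days, and in the control group the target was *unc*, with the days of feeding not given in the sources used here. Each group had 2 H3K4me3 libraries. The strain, the age of the worms, the number of animals behind a library and whether the libraries came from separate sorts were not given either, so p-values measure only the spread between these libraries, which may be technical. The comparison asks where the mark depends on *mll* in the dividing stem cell fraction. Its members are the 306 regions that the authors listed for these 4 libraries with the program diffReps, which compares windows of a genome between groups, out of 16052 regions in the 6 comparisons used here. Each region is counted once, however many genes it was paired with. The 306 regions lay on 299 scaffolds and were paired with 429 gene identifiers, and positions are those of scaffolds named v31 in the files. Gene names and the genome itself were not used here, so genes are called by their identifiers, no sequence is shown, and the X1 label could not be set against stem cell marker genes. The region values also cannot show how far *mll* itself was reduced.

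H3K4me3 is laid down around the starts of transcribed genes by enzymes of the COMPASS family, in which a catalytic SET domain protein works within a complex of shared subunits. In animals the family has a SET1 branch, which is generally responsible for most of the mark at active genes, and MLL branches, which act at more restricted sets of promoters and enhancers. X1 is the usual name of the irradiation-sensitive sorted fraction of planarian cells with replicated DNA, which is rich in neoblasts, the dividing stem cells from which all other cell types of the worm are renewed. Xins is that of the irradiation-insensitive fraction, which holds mostly differentiated cells. The sorted cells were measured in bulk, so a lower value in all cells and a loss in some of them cannot be told apart.

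H3K4me3 fell at nearly every listed region. The normalized count, which is the number of reads in a region scaled between libraries by the authors, was lower after *mll* RNAi in 283 of the 306 regions (92.5%, exact Clopper-Pearson 95% interval 88.9% to 95.2%, for counting only) and higher in 23. In the 283 lowered regions the median count was 43.4 and 42.6 in the RNAi libraries and 95.5 and 93.5 in the control libraries. The 2 RNAi libraries were below both control libraries in all 283, where the groups did not overlap in 304 of all 306 listed regions (99.3%). The median change was -1.13 on the log2(normalized count + 1) scale, with quartiles of -1.5 and -0.89, and the median share of the control signal that remained was 45.5%. A drop of 1 or more on that scale was seen in 176 regions (62.2%) and one of 2 or more in 22 (7.77%). With limma, a linear model across all listed regions with Benjamini-Hochberg adjustment at 0.05, 282 of the 306 regions were called lower (92.2% of those tested) and 20 were called higher (6.54%). Without a trend on the mean in that model 278 were called lower but only 6 higher. Since the authors chose these regions on the same 4 libraries, the calls are no independent evidence and say only that the listed differences exceeded the spread between libraries.

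The depth behind these values was moderate. For 263 of the 306 regions the values could be turned back into whole reads (to within 0.0075 of a whole number). One read was worth 1.00 to 1.05 and 1.47 to 1.59 units in the RNAi libraries but 0.656 to 0.693 and 0.905 to 0.945 units in the control libraries, so that equal normalized counts rest on fewer reads after RNAi. Whether these factors follow the sequencing depth of the libraries is not given in the sources used here. In the 245 lowered regions with recovered reads the median was 44.0 and 28.0 reads after *mll* RNAi and 143.0 and 103.0 reads in the control. The lowest values were 7, 5, 85 and 52 reads. The part of this difference in scaling in the listed changes was not tested. Within a group the libraries ranked the lowered regions alike, with Spearman's rho of 0.90 between the RNAi libraries and 0.90 between the control libraries over 283 regions, which share scaling and length.

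Among the listed regions, falls were smaller where the control level was higher. Only regions listed as different on these same libraries are seen. The part of that selection in the patterns of this paragraph was not tested. With all 306 regions split into 5 bins from the lowest to the highest control mean, the median log2 change was -1.45, -1.20, -1.09, -1.02 and -0.67. In the lowered regions the change had a Spearman's rho of 0.44 with the control mean (n = 283 regions), a description in which both measures share the control libraries. Of the 275 regions with a control mean of at most 180 units 272 were lower, with a median change of -1.14. Of the 31 regions above that level 11 were lower and 20 higher, with a median change of 0.17. The limit of 180 units was chosen after the values were seen. The lowered regions also left a gap. None had a change between -0.52 and -0.26, and the 5 that lay above the gap had a median control mean of 287 units and a median control enrichment over input of 23.1.

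**Figure D1:**
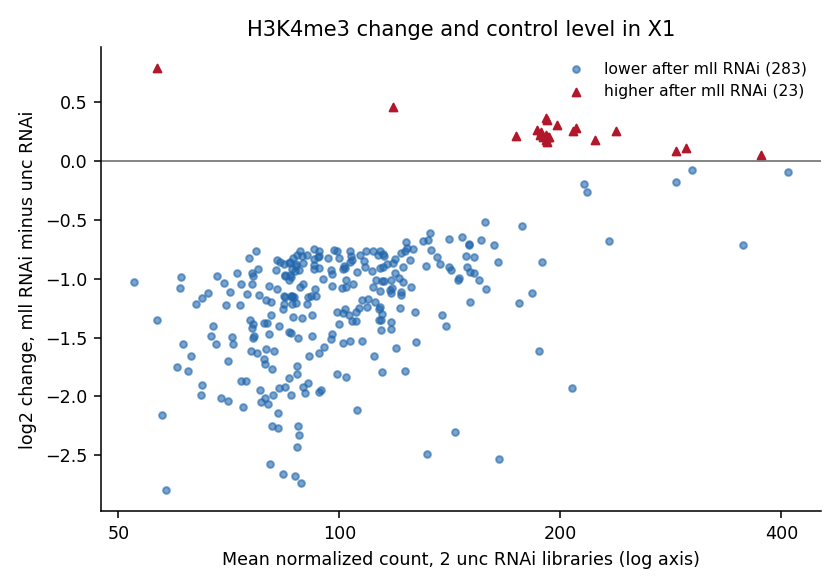
Each point is 1 of the 306 listed regions in X1. The x axis is the mean normalized count of the 2 *unc* RNAi libraries on a log axis and the y axis is the log2 change, *mll* RNAi minus *unc* RNAi. Circles are the 283 lowered regions and triangles the 23 raised ones, and 20 of the 31 regions above a control mean of 180 units are triangles.

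The 15 largest falls left 12.7% to 22.3% of the control signal. Among them the normalized count ranged from 7.12 to 33.1 in the first-listed and 7.68 to 43.5 in the second-listed RNAi library. In the control libraries it ranged from 65.8 to 170 and from 48.3 to 159. The 15 were chosen as the largest falls among regions whose groups did not overlap, so that separation was fixed by the choice. Of the 15 regions 13 spanned the start of their gene. Enrichment over input, the ratio of H3K4me3 signal to that of chromatin sequenced without immunoprecipitation, was between 4.82 and 10.9 in the control and between 0.71 and 2.09 after *mll* RNAi, and in 7 of the 15 it ended below 1, the level of the input.

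The largest fall was at the start of SMED30025231 (v31.015823:8501-10000). Its normalized counts were 7.12 and 7.68 after *mll* RNAi and 67.9 and 48.3 in the control, a log2 change of -2.80 (SE 0.35, n = 2 and 2, limma adjusted p = 2.49e-05). The RNAi values stand for 7 and 5 reads and the control values for 98 and 52. At the start of SMED30033551 (v31.006200:16401-17900) the counts were 9.23 and 16.7 against 90.9 and 86.1, a change of -2.74 (SE 0.28, limma adjusted p = 1.12e-05). The start of SMED30025001 (v31.002547:36501-37800) had 13.6 and 12.2 units against 85.8 and 88.3, a change of -2.67 (SE 0.22, limma adjusted p = 5.91e-06). In these last 2 regions enrichment over input went from 5.30 to 0.71 and from 8.16 to 0.99, so that little or no signal above input was left. SMED30009782 (v31.000612:23001-24000) was the one of the first 4 whose region did not reach its gene, ending or beginning 75 bases from the start. Its RNAi libraries differed from each other, at 19.3 and 7.76 units (19 and 5 reads), against 93.4 and 74.3 units in the control (change -2.66, SE 0.35, limma adjusted p = 3.48e-05). The change was -3.27 without the first-listed and -2.05 without the second-listed RNAi library.

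The highest control level of the 15 was at SMED30025250. This region (v31.001837:34801-36700, over the gene start) fell from 170 and 159 units to 33.1 and 23.1, a change of -2.53 (SE 0.17, limma adjusted p = 1.74e-06) with 32 and 15 reads left. SMED30000566 (v31.044442:1-2100), whose region begins at the end of its scaffold and may therefore be cut, fell from 135 and 129 units to 25.2 and 20.3, a change of -2.49 (SE 0.16, limma adjusted p = 1.47e-06). SMED30009983 (v31.000039:144701-146500) also had uneven RNAi libraries, with 18.3 and 43.5 units after *mll* RNAi against 150 and 138 in the control (change -2.30, SE 0.30, limma adjusted p = 3.14e-05). Its change was -1.70 without the first-listed and -2.91 without the second-listed RNAi library. The other 8 of the 15 were the regions of SMED30028057, SMED30022889, SMED30032686, SMED30004555, SMED30023688, SMED30014144, SMED30010775 and SMED30034742, with changes of -2.57 to -2.14 and limma adjusted p of 5.91e-06 to 3.87e-05.

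**Figure D2:**
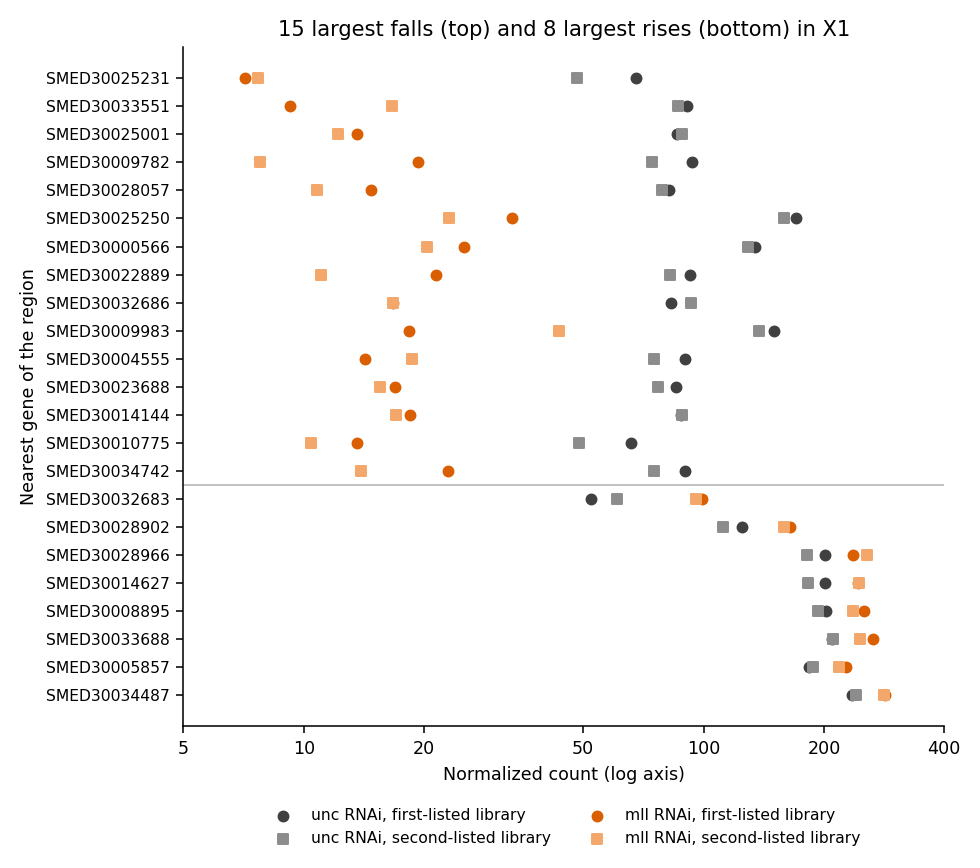
Normalized counts (log axis) of the 4 libraries at the 15 largest falls (above the line) and the 8 largest rises (below it), each named by its nearest gene. Orange marks are *mll* RNAi and grey marks *unc* RNAi, with circles for the first-listed and squares for the second-listed library. At the falls every orange mark is at 43.5 or lower and every grey one at 48.3 or higher, while at the rises the marks lie close together. All were chosen for large changes and for groups that did not overlap.

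The lowered regions sat on gene starts. Of the 283, 248 spanned a listed gene start (87.6%, interval 83.2% to 91.2%), 13 lay up to 200 bases from one, 11 lay farther but within 1000 bases and 11 lay beyond that, so that 272 (96.1%) spanned or came within 1000 bases of a start. The files give distances without a sign, so upstream and downstream cannot be told apart. Gene starts were spanned by 12 of the 23 raised regions (52.2%, interval 30.6% to 73.2%). In whole worms 84.4% of the 2970 regions lowered by *mll* RNAi spanned a start. After RNAi for 6 days against *set1*, named after the other branch of the enzyme family, 130 of the 553 regions lowered in X1 spanned a start (23.5%, upper bound of the interval 27.3%) and 300 (54.2%) lay more than 200 and up to 1000 bases from one, against 3.89% of those lowered by *mll* RNAi. The intervals are for counting regions only and measure no spread between libraries, so the difference between the *mll* and *set1* lists was not tested. The gene, the days of feeding and the separate libraries cannot be told apart as sources of that difference.

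**Figure D3:**
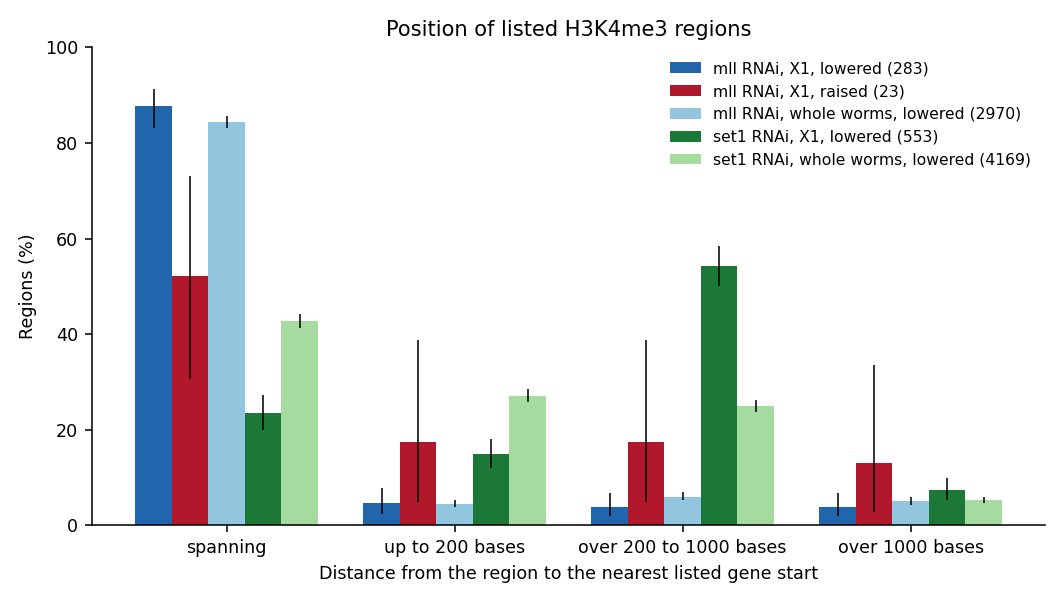
Share of listed regions (percent, bars from 0) by distance to the nearest listed gene start, for regions lowered or raised by *mll* RNAi in X1, lowered by *mll* RNAi in whole worms, and lowered by *set1* RNAi in X1 and in whole worms, with the number of regions in parentheses. Lines are exact 95% intervals for counting. Spanning a start is the tallest class for *mll* in X1 at 87.6% and the class of over 200 to 1000 bases the tallest for *set1* in X1 at 54.2%.

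Some lowered regions covered more than one gene. The starts of 2 genes lay within 22 of the 283 regions and those of 3 genes within 4, together 9.19%. None of the 23 raised regions and 18 of the 553 regions lowered by *set1* RNAi in X1 (3.25%) held 2 or more. A smaller share of *set1* regions spanned any start, 131 of all 554 listed in X1, 113 of them with exactly 1. Among regions spanning a start, the share with 2 or more was therefore not lower for *set1* RNAi. The raised regions are few and mostly short, and these shares were not tested. The 4 with 3 starts were v31.000256:56701-57900, v31.000600:116201-117600, v31.001146:95501-96800 and v31.003307:1101-2800, named here after their values were seen. Their median change was -1.02, beside -1.15 for the 222 regions with 1 start, -1.03 for the 22 with 2 and -1.02 for the 35 with none. Differences among these medians were not tested.

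Listed regions rarely shared a scaffold, although scaffolds do not show how the regions lie along chromosomes. Only 7 scaffolds held 2 listed regions and none held 3 or more. The closest pair was on v31.016793, where both regions were paired with SMED30009045 and were separated by 500 bases. The one over the gene start (3901-5000) had 16.01 and 22.8 units after *mll* RNAi against 64.7 and 60.7 in the control, a change of -1.66 (SE 0.23, limma adjusted p = 5.04e-05). The other, 534 bases from the start (2101-3400), had 33.0 and 30.5 units against 70.2 and 91.0, a change of -1.31 (SE 0.18, limma adjusted p = 3.84e-05). On v31.002031 a lowered and a raised region lay 37000 bases apart. The lowered one, at the start of SMED30002723, had 49.0 and 47.1 units against 102 and 102. The raised one, at the start of SMED30027641, had 242 and 252 units against 198 and 218 (change 0.25, SE 0.06, limma adjusted p = 0.00254). The other 5 scaffolds carried a pair of lowered regions each, 19200 to 76000 bases apart.

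The 11 lowered regions more than 1000 bases from any listed start had a median distance of 6665 bases. The farthest was v31.000581:118001-119000, which lay 45162 bases away and had 54.9 and 60.5 units after *mll* RNAi against 95.5 and 101 in the control (change -0.76). The region with the largest fall of the 11, v31.018013:8101-9200, lay 5537 bases away and had 17.3 and 15.4 units against 66.5 and 74.3 (change -2.04). Both examples were chosen after their values were seen. These regions are away from the starts of the gene models in the files, and whether unannotated starts lie in them was not tested.

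The lowered regions were on the median longer than the raised ones, a difference that was not tested. Their median length was 1400 bases, with quartiles of 1200 and 1600, and 35 of the 283 (12.4%) had 1000 bases, the shortest length in the list. Of the 23 raised regions 17 (73.9%) had 1000 bases and the longest had 1400. The longest lowered region, v31.000668:58901-61500, had 2600 bases and spanned the starts of SMED30024332 and SMED30035504. Its counts were 52.8 and 54.3 after *mll* RNAi against 223 and 193 in the control, a change of -1.93 (SE 0.11, limma adjusted p = 1.38e-06). The next in length were the regions of SMED30000566 (2100 bases), SMED30016599 (2100 bases, 88.7 and 64.6 against 168 and 183 units, change -1.20), SMED30033662 (2000 bases, 64.0 and 57.4 against 188 and 187 units, change -1.61) and SMED30031908 (2000 bases, 78.2 and 88.5 against 182 and 183 units, change -1.13). A further region of 2000 bases, at SMED30029526, kept more of its mark, with 217 and 214 units against 354 and 354 (change -0.71). Length and the size of the fall were only weakly related, with a Spearman's rho of -0.15 over the 283 regions and a median change of -0.99 in the shortest and -1.20 in the longest of 4 length bins.

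Measured against input, the lowered regions went from clearly marked to weakly marked. Their median enrichment was 7.30 in the control (quartiles 6.08 and 8.86) and 2.88 after *mll* RNAi (quartiles 2.02 and 3.95). It was below 2 in 67 of the 283 after RNAi (23.7%) and in 1 in the control. Enrichment was lower after RNAi in 282 of the 283 lowered regions, but also in 11 of the 23 raised ones, for which the normalized count and the enrichment therefore go in opposite directions. Across 4 bins of the lowered regions from the lowest to the highest control enrichment the median log2 change was -1.33, -1.29, -1.07 and -0.91, with smaller falls where the control enrichment was higher. The part of the selection of listed regions in this pattern was not tested.

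**Figure D4:**
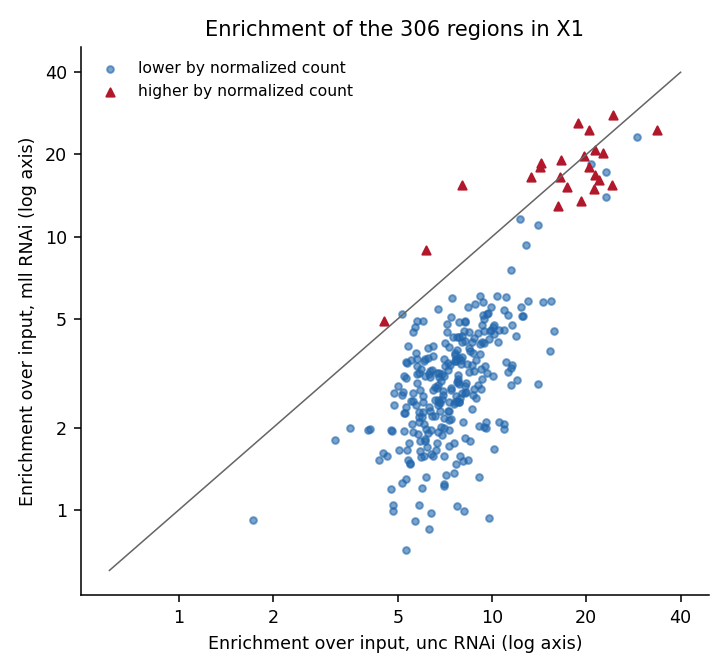
Enrichment over input of the 306 regions in *unc* RNAi (x axis) and *mll* RNAi (y axis), both on log axes, with the line of equal values. Circles are regions lower and triangles regions higher by normalized count. Of the 283 circles 282 lie below the line, and of the 23 triangles 11 do.

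The 23 raised regions had small changes and high control levels. Their median counts were 231 and 222 units after *mll* RNAi and 196 and 188 in the control, a median change of 0.22 with quartiles of 0.19 and 0.27. Their median control mean was 192 units and their median control enrichment 19.3, against 93.8 units and 7.30 in the lowered regions. The groups did not overlap in 21 of the 23, beside 304 of all 306 listed regions (99.3%). At the top of the list by control enrichment the changes in normalized count were small in either direction. Among the 5 regions with the highest values, from 33.6 at SMED30009430 to 23.2 at SMED30018637, the log2 change lay between -0.18 and 0.22, and limma did not call these 2 (adjusted p = 0.0507 and 0.103). Called lower among the 5 was SMED30034512, with 255 and 251 units against 278 and 296 (change -0.18, SE 0.05, limma adjusted p = 0.00387). Called higher were SMED30017430, with 211 and 218 units against 188 and 196 (change 0.16, SE 0.06, limma adjusted p = 0.0241), and SMED30021617, with 216 and 222 units against 195 and 181 (change 0.22, SE 0.06, limma adjusted p = 0.0061). These 3 calls were lost without a trend on the mean, and that of SMED30017430 also without the second-listed RNAi or the first-listed control library, while that of SMED30021617 was lost without the second-listed control library. By enrichment over input 4 of the 5 were lower after *mll* RNAi, SMED30021617 among them (24.2 in the control and 15.5 after RNAi), and SMED30017430 was higher (24.4 and 27.8). Because the 5 were chosen for high control enrichment, that choice favours a lower enrichment after RNAi.

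The largest rise stood apart from the other 22. It was at SMED30032683 (v31.003234:35401-36400, over the gene start, with the start of SMED30030128 at 355 bases), where the counts were 99.1 and 95.9 after *mll* RNAi and 52.2 and 60.7 in the control, a change of 0.78 (SE 0.13, limma adjusted p = 0.00018). Its control level was among the lowest in the list, unlike that of most raised regions, and its enrichment also rose, from 6.16 to 8.97. The next rise, at SMED30028902 (v31.000959:45801-46800, 475 bases from the start), was from 125 and 112 units to 165 and 159, a change of 0.45 (SE 0.09, limma adjusted p = 0.000477). The other 6 of the 8 largest were at SMED30028966, SMED30014627, SMED30008895, SMED30033688, SMED30005857 and SMED30034487, with changes of 0.36 to 0.25 and limma adjusted p of 0.000258 to 0.00134. Those of SMED30005857 and SMED30034487 were not called without a trend on the mean. Of the 8, 5 had 1000 bases and 5 spanned a start.

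Most of the lowered regions were also lower in whole worms, which were measured in other libraries (*mll* RNAi for 9 days against its own *unc* RNAi control, 2 and 2). Of the 283 lowered regions 156 (55.1%) overlapped a region listed there, in 163 pairs. The whole-worm region was lower in 153 of the 163 pairs (93.9%, interval 89.0% to 97.0%), against 57.5% of all 5169 regions of that list. It was called lower in 141 pairs (86.5%), where 26.3% of all its regions were called lower, and called higher in 5 (3.07%), where 10.9% were. The median whole-worm change in the pairs was -0.47, beside -0.03 over the whole list. The lists are of unequal size, so the 153 pairs take 5.15% of the 2970 whole-worm regions that were lower. Among the strongest whole-worm falls the share was higher, with 77 of the 215 regions that dropped by 0.5 or more (35.8%) and 18 of the 28 that dropped by 1 or more overlapping a region lowered in X1.

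The fall was usually smaller in whole worms. In the 153 pairs lower in both, the median change was -0.99 in X1 and -0.51 in whole worms, and the X1 fall was the larger one in 140. The lists were normalized separately and that difference was not tested. The pairs were also chosen on regions listed in X1, where only 5 regions changed by between -0.5 and 0. The whole-worm list holds many small falls, with a median of -0.10 over its 2970 lower regions. That choice favours a larger fall in X1. Whole worms hold many cell types beside X1 cells, and the part of this in the difference was not tested. The 2 changes had a Spearman's rho of 0.56 over the 163 pairs, as a description. Of the 15 largest X1 falls 6 overlapped a listed whole-worm region, and all 6 were called lower there, with changes of -1.38 to -0.60. For SMED30025250 the whole-worm counts were 366 and 402 after *mll* RNAi and 846 and 896 in the control, a change of -1.18 (SE 0.05, limma adjusted p = 1.16e-102). For SMED30022889 they were 166 and 167 against 428 and 441, a change of -1.38 (SE 0.08, limma adjusted p = 1.74e-59), beside 21.4 and 11.0 against 92.4 and 82.6 in X1 (change -2.43). In each list limma pools the spread over all listed regions. Very small p-values, here and below, therefore cannot be read as the spread between libraries at a single region.

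At a few regions the whole-worm fall was as large as that in X1 or larger. The largest whole-worm falls among the lowered regions were at SMED30025729, where whole worms had 87.8 and 88.8 units against 343 and 332 (change -1.92) and X1 had 14.95 and 18.4 against 72.5 and 57.4 (change -1.90). The next was at SMED30018035, with 200 and 238 units against 653 and 666 in whole worms (change -1.59) and 55.3 and 49.5 against 144 and 135 in X1 (change -1.40). At SMED30027304 the whole-worm counts were 139 and 161 against 450 and 391 (change -1.48), while the X1 counts were 51.1 and 61.1 against 101 and 98.7 (change -0.83). SMED30008443 was similar, with -1.35 in whole worms (208 and 197 against 514 and 523 units) and -0.96 in X1 (53.9 and 68.3 against 107 and 131 units). The other 4 of the 8 largest whole-worm falls, at SMED30025039, SMED30030034, SMED30022889 and SMED30023688, were larger in X1. All 8 spanned the start of their gene. They were picked from regions called lower in whole worms, so that call was fixed by the choice. In X1 limma called all 8 lower, as it did 92.2% of the 306 listed regions.

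The raised regions had less counterpart in whole worms. Of the 23, 22 overlapped a listed whole-worm region, in 29 pairs, of which 16 were higher and 13 lower. Called higher were 6 pairs (20.7%, where 10.9% of all whole-worm regions were) and called lower 0, with a median change of 0.03. At SMED30032683 the whole-worm counts were 598 and 632 after *mll* RNAi and 485 and 505 in the control, a change of 0.31 (SE 0.06, limma adjusted p = 1.22e-07), so that the largest X1 rise was also higher in the other libraries.

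Few of the lowered regions were listed for Xins cells. After *mll* RNAi for 9 days against its own *unc* RNAi control only 12 regions were listed there, all lower and all called (100% of those tested), and 2 of them overlapped lowered X1 regions. The Xins fit had no trend on the mean, unlike that of X1. The region of SMED30001586 lay 16372 bases from the gene start and had 34.8 and 34.7 units against 63.3 and 81.3 in Xins (change -1.02, SE 0.20, limma adjusted p = 0.0014) and 38.9 and 41.8 against 102 and 108 in X1 (change -1.36, SE 0.14, limma adjusted p = 1.12e-05). That of SMED30025250 had 23.6 and 28.8 units against 64.5 and 56.9 in Xins (change -1.18, SE 0.20, limma adjusted p = 0.000842), beside the change of -2.53 in X1 given above. Both were lower in whole worms too. Regions that are not listed for Xins carry no value here, so it is not shown that the other regions kept their mark in Xins.

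Few of the lowered regions were listed for *set1* RNAi in X1. After 6 days of *set1* RNAi against its own *unc* RNAi control, 554 regions were listed in X1, of which 553 (99.8%) were called lower. Of the 283 regions lowered by *mll* RNAi 6 (2.12%) overlapped one of them, and of the 23 raised ones 4 (17.4%). All 10 were lower after *set1* RNAi. Regions not listed there carry no *set1* value in X1. SMED30027690 (v31.014818:8101-10000, 937 bases from the start) had 18.2 and 22.9 units after *set1* RNAi against 80.0 and 74.2 (change -1.86, SE 0.21, limma adjusted p = 8.44e-17), and 54.1 and 65.5 after *mll* RNAi against 118 and 126 (change -1.02, SE 0.13, limma adjusted p = 3.08e-05). For SMED30005961, SMED30016599 and SMED30008939 the changes were alike in size, -1.15, -0.98 and -1.01 after *set1* RNAi and -1.35, -1.20 and -1.15 after *mll* RNAi. The other 2 of the 6, at SMED30004920 and SMED30034512, had small changes after either, -0.33 and -0.53 after *set1* RNAi and -0.10 and -0.18 after *mll* RNAi, and the *mll* changes of these 2 were not called without a trend on the mean. These differences between knockdowns come from separately normalized lists and were not tested.

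The 4 regions with a higher normalized count after *mll* RNAi that met a *set1* region were lower there, although not all 4 were clearly raised by *mll* RNAi. SMED30005857 had 227 and 218 units after *mll* RNAi against 184 and 187, and 127 and 121 after *set1* RNAi against 243 and 205 (change -0.84, SE 0.10, limma adjusted p = 3.11e-15). SMED30033688 had 265 and 246 against 209 and 211 after *mll* RNAi (with enrichment over input lower, 12.95 against 16.28), and 63.3 and 58.1 against 118 and 107 after *set1* RNAi (change -0.88, SE 0.15, limma adjusted p = 2.52e-08). SMED30017430 shared 200 bases with its *set1* region, which changed by -0.74. SMED30004537, which *mll* RNAi left at 403 and 372 against 382 and 370 units (change 0.04, limma adjusted p = 0.303, and -0.013 without the first-listed RNAi library), changed by -0.33 after *set1* RNAi. The *set1* and *mll* regions cover different stretches of these loci and 1 sign of change does not stand for the whole locus.

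In whole worms the lowered regions tended to be higher after *set1* RNAi, by a small amount. Of the 283, 169 (59.7%) overlapped a region listed for *set1* RNAi in whole worms, in 210 pairs, of which 75 were lower (35.7%, interval 29.2% to 42.6%, against 48.3% of the whole list) and 135 higher (64.3%). Called higher were 69 pairs (32.9%, where 15.1% of all 8633 regions were) and called lower 33 (15.7%, where 25.8% were). The median change was 0.05, beside 0.01 over the whole list. Of the 133 lowered regions that met both whole-worm lists, 102 had at least 1 region lower after *mll* RNAi and at least 1 higher after *set1* RNAi. A region counts here even where another of its pairs went the other way, so the 102 cannot be set against the shares of pairs. All 9 of the 15 largest X1 falls that met a *set1* whole-worm region were higher there, by 0.02 to 0.28 on the log2 scale, and 8 were called. SMED30025231, for example, had 378 and 371 units after *set1* RNAi and 295 and 320 in its control (change 0.28, SE 0.06, limma adjusted p = 3.54e-05). The raised regions had 36 such pairs, of which 21 were lower and 15 higher, with 16 called lower (44.4%) and 2 called higher.

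**Figure D5:**
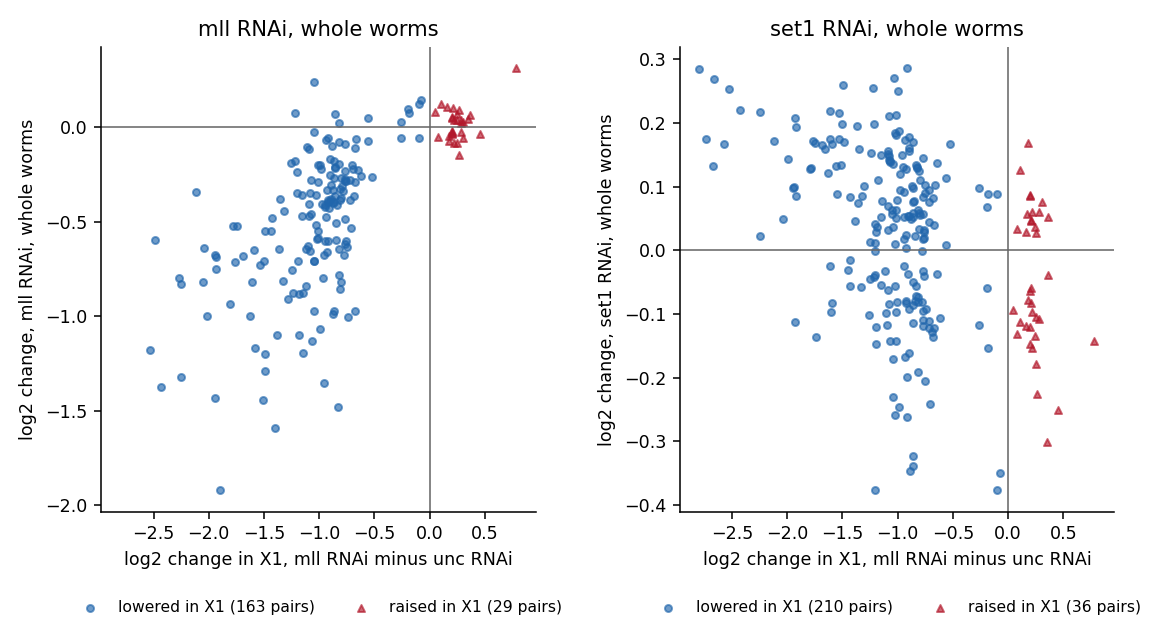
Log2 change in X1 after *mll* RNAi (x axes) and in the overlapping whole-worm region (y axes) after *mll* RNAi (left, 163 lowered and 29 raised pairs) and after *set1* RNAi (right, 210 and 36 pairs), each against its own *unc* RNAi control. Circles are lowered and triangles raised in X1, and the y axes differ in range. Of the circles 153 lie below 0 on the left and 75 on the right.

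Regions lowered by *mll* RNAi did not have one pattern between untreated X1 and Xins cells. The list for that comparison was read only in part, to scaffold 1565, and its first group was taken to be X1 from the order of its name. Scaffolds numbered up to 1565 hold 118 of the 283 lowered regions. The part read has 2 runs of scaffolds that overlap in number, so some of the 118 may lie beyond it. Of the 118, 41 (34.7%) overlapped a listed region, in 42 pairs, a share that may for that reason be too low. The mark was higher in X1 in 29 pairs and higher in Xins in 13, all of them called, where 37.4% of all 1378 listed regions were lower in X1, 56.2% were called higher in X1 and 32.1% called higher in Xins. In SMED30009983 the X1 libraries held 94.5 and 75.7 units and the Xins libraries 9.12 and 7.72 (change 3.19, SE 0.25, limma adjusted p = 0.00332). The Xins values stand for 2 and 9 reads. In SMED30004555 the X1 values were 39.5 and 43.8 and the Xins values 77.5 and 81.5 (change -0.92, SE 0.15, limma adjusted p = 0.00849), although it was among the 15 largest falls in X1. Both directions occurred side by side in the longest region, at SMED30024332, where the listed stretch at 58301-60500 had 58.7 and 60.6 units in X1 against 22.8 and 18.9 in Xins, and that at 59901-61500 had 44.1 and 50.7 against 77.5 and 90.9. All 8 raised regions that met this list were higher in X1, and 7 were called.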

How the data were processed

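The deposited tables hold diffReps comparisons of 2 against 2 H3K4me3 libraries, 4 libraries for *mll* RNAi in X1 (58 samples in the series, 29 of them inputs). For each region the authors deposited normalized read counts of both libraries in 1 cell, a mean signal and an enrichment ratio over input for each group, and the distance of each paired gene start in bases. Their columns of log2 fold changes, p-values and adjusted p-values were not used. The submitters' processing notes name CASAVA 1.8.2, Bowtie and MACS2, with no version for the last 2. The build, the diffReps settings and whether the *Drosophila* cells mentioned in the protocol served to scale the libraries are not given in the sources used here. The list was joined from 28 runs of scaffolds, between which the worth of 1 read varied slightly.

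The 430 lines were reduced to 306 regions, the count cells were split, and log2(normalized count + 1) was modelled in R 4.3.3 using limma 3.58.1 (empirical Bayes with a trend on the mean, Benjamini-Hochberg over the listed regions of each table, threshold 0.05). The other tables were fitted alone, and 6 of the 7 tables deposited were used. The 12 regions listed for *mll* RNAi in Xins were fitted without a trend on the mean. Regions overlapped when they shared at least 1 base. Shares have exact 95% intervals. The fit was tested on simulated data.

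Regions were named by a rule: the 15 largest falls and 8 largest rises with a mean of at least 20 units and groups not overlapping, the 5 longest lowered, the 5 with the highest control enrichment, the 8 lowered regions with the largest called whole-worm falls, and all that overlapped a *mll* Xins or *set1* X1 region. Members, lists and rules were chosen with earlier results of these data known.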

Additional observations from a re-analysis of the deposited data

Results flagged for a closer look

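At 15 regions both libraries of each group moved one way in X1 and the other way in whole worms after *mll* RNAi. They came from the 163 lowered and 29 raised pairs. Groups did not overlap in 304 of all 306 regions listed in X1 (99.3%). In whole worms this held for 1527 of the 2199 regions raised by *mll* RNAi (69.4%). That share concerns the flagged regions with a higher whole-worm region. None is given for those with a lower one, so how common such separation is among whole-worm falls is not shown here. Of the 163 lowered pairs, 5 had a whole-worm region called higher. The difference between the materials was not tested, since the lists were normalized separately.

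Of these, 7 were lower in X1 and had a whole-worm region that was higher. A full-sized fall in X1 met a small whole-worm rise at SMED30003141 (-1.04 and 0.24 on the log2 scale), SMED30028164 (-1.22 and 0.077) and SMED30002903 (-0.86 and 0.072). At the other 4 both changes were small, with -0.10 and 0.12 at SMED30004920, -0.19 and 0.10 at SMED30022942, -0.08 and 0.14 at SMED30018637, and -0.18 and 0.074 at SMED30034512. SMED30004920 met a further whole-worm region that was lower.

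The other 8 were higher in X1 and had a whole-worm region that was lower. The largest X1 rise among them was at SMED30028902 (0.45, and -0.038 in whole worms). The X1 and whole-worm changes were 0.30 and -0.056 at SMED30008895, 0.28 and -0.025 at SMED30033688, 0.26 and -0.15 at SMED30005857, 0.25 and -0.084 at SMED30027641, 0.22 and -0.081 at SMED30021617, 0.18 and -0.045 at SMED30015929, and 0.17 and -0.073 at SMED30031071. None of these 8 whole-worm falls was called by limma.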

How the results depend on the processing

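Under the alternatives, 70 of 75 values that answer a comparison kept their direction and size. Leaving out each library in turn gave 281 to 283 regions called lower, 17 to 22 called higher, a median change of -1.17 to -1.11 in the lowered and 0.21 to 0.24 in the raised regions, and 92.5% to 92.8% of regions lower. The count called higher was 6 of 20 without a trend on the mean, a setting under which 18 of all 302 calls were lost, and 3 when only regions with a control mean of at most 180 units were kept, an alternative chosen after seeing the data. By enrichment over input, also chosen after seeing the data, 95.8% of the regions were lower. Counting only regions that span a start gave 87.6% in place of 96.1%, and counting only called *set1* whole-worm regions gave an overlap of 34.6% in place of 59.7%. The rise at SMED30004537 of 0.04 became -0.013 without the first-listed *mll* library. Of the other values of named regions, 337 held, 9 lost their call and 5 gained one. No paired analysis was possible because the files do not say which of the 2 values in a cell belongs to which replicate number. For the same reason the fit with the replicate number as a block was not run. Depth limits the 15 largest falls, where a library can hold as few as 5 reads, and the comparison with Xins, where SMED30009983 had 2 and 9 reads in the Xins libraries. Regions that the authors did not list were not analysed here.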
